A study of Mus musculus with 9 samples.

Results

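The guidance genes are the families of secreted and membrane-bound cues that steer growing axons, together with their receptors: semaphorins of classes 3 to 7 with the plexins and the neuropilins Nrp1 and Nrp2, ephrins with Eph receptors, Slits with Robos, and netrins with Unc5 receptors. Members were taken by a rule on gene symbols that reads no measured values, though it was chosen with earlier results of these data known. Of 18193 genes with a probe set of their own on the array, 67 matched. They are 20 semaphorins, 10 plexin symbols, 2 neuropilins, 8 ephrins, 13 Eph receptors, 3 Slits, 3 Robos, 4 netrins and 4 Unc5 receptors. The plexin symbols include Plxna4os1, an RNA named for the strand opposite to Plxna4, and Ephb2 was not analysed here. Where a gene had several probe sets, the brightest on average was read, and 52 of the 67 had a mean above the expression filter (log2 of 7.21) and were tested.

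Expression was profiled on Affymetrix mouse arrays in proximal tibial growth plates of wild-type newborn Black Swiss mice (age 0 days). This cartilage plate was cut by hand from frozen sections into a round, a flat and a hypertrophic cell layer. Each layer was sampled in 3 litters, and a sample holds the tissue of 18 to 20 tibiae, pooled within 1 litter (9 to 10 pups). Arrays with the same replicate number were taken to be of the same litter, so the 9 arrays form 3 matched sets. All samples share genotype, strain and age, no step of the dissection purified chondrocytes, and the RNA is that of whole layers. The layer labels were checked against defining markers. Log2 differences between the hypertrophic and round layers were 6.50 ± 0.36 (SE, n = 3 litters) for the hypertrophic collagen gene Col10a1 and -6.11 ± 0.27 for the joint lubricant gene Prg4, with adjusted p of 1.15e-07 and 5.25e-08 by limma. Median signals of the arrays were 123.1 to 151.6. The round array of litter 1 stood apart in RNA integrity, with a 3'/5' ratio of 4.25 for actin against 1.45 to 2.06 on the other 8 arrays. Skeletal muscle markers were higher in flat than in round samples in 9 of 9, with summed signals of 104122 to 167195 in the round layer, 246355 to 413830 in the flat layer and 100534 to 246669 in the hypertrophic layer. The p-values rest on how far layer differences vary from litter to litter, since litter is a block, with variances moderated across genes.

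Semaphorins signal through plexins. The secreted class 3 members mostly need a neuropilin as the ligand-binding part of the receptor, with Sema3e, which binds Plxnd1 directly, as the known exception. Ephrins are held in the membrane, type A by a lipid anchor and type B by a transmembrane segment, and signal to Eph receptor kinases on touching cells while also signalling back. Slits bind Robos, and netrins bind Unc5 receptors, Dcc and neogenin. In bone these cues are known from the ingrowth of vessels and nerves and from the exchange between osteoclasts and osteoblasts, for which Sema4d, Sema3a and the pair of Efnb2 and Ephb4 are the usual examples.

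Guidance genes differed between the layers in opposite sets, some with their peak at the joint side and more at the bone side. In the F test over the 3 layers 26 of 52 members passed, against 28.4% of all 11313 genes tested, at a limma adjusted p under 0.05. All adjusted p below are from this limma fit on log2(signal + 26) with litter as a block, and differences are on that scale. Between the flat and round layers 8 members rose and 7 fell, where 8.39% of all genes rose and 8.64% fell. Between the hypertrophic and flat layers 13 rose and 1 fell (all genes: 6.12% and 5.22%), and between the hypertrophic and round layers 18 rose and 10 fell (all genes: 12.4% and 12.7%). Counted in either direction these are 15, 14 and 28 of 52 members, beside 17.0%, 11.3% and 25.1% of all genes. The median log2 difference of the 52 was 0.01, 0.16 and 0.17 in these 3 contrasts, against -0.01, -0.00 and 0.01 for all genes tested. The contrasts share arrays, so their counts are not independent. With arrays centred on their medians the members split 8 and 8, 13 and 1, and 18 and 9, while over all genes the share of calls that were higher moved from 49.3% to 39.7% and from 53.9% to 65.2% in the first and second contrast.

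By layer, 7 members were highest in the round layer, with both contrasts past the threshold (6.05% of all genes did so): Sema3c, Sema3e, Sema3f, Efna1, Efnb2, Ntn1 and Ntn4. Efna1 is counted here on a hypertrophic call that most alternatives ended, and calls of Sema3f, Efnb2 and Ntn4 were lost in some. Sema3e entered the test through the round layer, the only one where its mean lay above the filter. All 7 are ligands, as are 29 of the 52 members tested. The hypertrophic layer was highest for 11 members (4.19% of all genes), of which Sema3b, Sema4d, Sema6d, Sema7a, Slit2 and Slit3 are ligands and Nrp2, Plxnd1, Epha2, Unc5b and Unc5c receptors. Among these, the calls of Sema3b, Slit3, Epha2 and Unc5c against flat were lost with some single arrays left out. Both calls of Sema6d were lost without the litter block. The round layer was lowest for 8 (4.8% of all genes): Sema4d, Slit2, Efna5, Efnb1, Epha3, Plxna2, Nrp2 and Unc5b. No member was highest in the flat layer by limma (0 of 52, with 1.9% of all genes, and 1, Epha3, at unadjusted p under 0.05 in both contrasts). Efna1 was lowest in the flat layer (1.08% of all genes), and Sema3c was lowest in the hypertrophic layer (2.78% of all genes). All 57 differences past the threshold had the same sign in each of the 3 litters, and in 53 of them the 3 arrays of 1 layer did not overlap with those of the other. The threshold was applied to these same arrays, so such agreement is largely built into the selection and is no separate support. Its share over all genes past the threshold was not computed. With arrays round 1 and flat 3 (layer and litter number) both left out, 9 rose and 7 fell between flat and round, 12 and 3 between hypertrophic and flat, and 17 and 7 between hypertrophic and round. Leaving out the hypertrophic array of litter 1 took the rises between hypertrophic and flat from 13 to 8, and leaving out hypertrophic 2, hypertrophic 3 or round 2 took the falls between hypertrophic and round from 10 to 4, 6 and 6. Over all genes tested the rises went from 692 to 332 without hypertrophic 1, and the falls from 1435 to 939, 1109 and 1004. The fall between hypertrophic and flat, that of Sema3c, was lost without hypertrophic 1 or hypertrophic 3 (0 falls, with 5 at unadjusted p under 0.05 in each case).

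**Figure D1:**
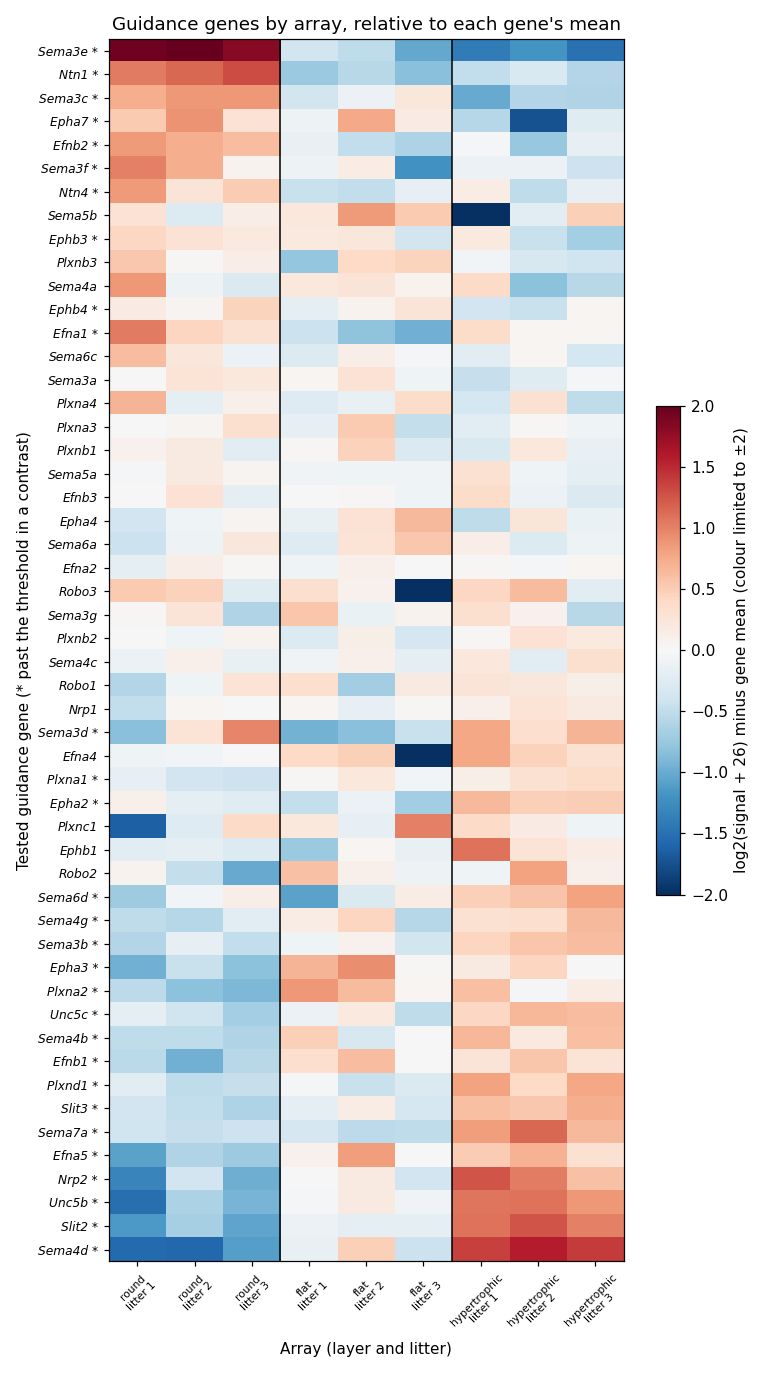
Each row is 1 of the 52 tested guidance genes, each column 1 array (3 litters in each layer), and colour is log2(signal + 26) minus the gene's mean, limited to ±2; rows run from the most negative to the most positive difference between hypertrophic and round. Sema3e, Ntn1 and Sema3c are red on the 3 round arrays at the top, Sema4d, Slit2, Unc5b and Nrp2 are red on the 3 hypertrophic arrays at the bottom, and * marks the 29 genes past the threshold in a contrast.

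The stretch just upstream of the start site is shown for the 4 genes that differed most in the semaphorin, neuropilin, Slit and Unc5 families, since Sema3e was lower and the other three were higher in the hypertrophic layer. The 250 bases before the annotated start are from RefSeq (GRCm38.p6), 5′ to 3′ on the gene's strand, with letters in capitals where a searched motif matched.
Sema3e (chr5:14025026-14025275, plus strand): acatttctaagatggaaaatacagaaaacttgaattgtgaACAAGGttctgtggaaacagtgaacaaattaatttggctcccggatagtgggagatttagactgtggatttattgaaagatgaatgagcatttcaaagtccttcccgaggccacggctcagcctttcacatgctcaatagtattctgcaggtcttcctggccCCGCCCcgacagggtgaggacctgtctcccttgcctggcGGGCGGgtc
Nrp2 (chr1:62703067-62703316, plus strand): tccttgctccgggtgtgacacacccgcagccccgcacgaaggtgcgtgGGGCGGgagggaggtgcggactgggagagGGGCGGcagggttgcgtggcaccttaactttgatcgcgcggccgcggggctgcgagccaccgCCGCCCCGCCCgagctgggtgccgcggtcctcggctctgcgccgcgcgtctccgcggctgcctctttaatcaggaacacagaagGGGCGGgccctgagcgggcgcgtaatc
Slit2 (chr5:47982905-47983154, plus strand): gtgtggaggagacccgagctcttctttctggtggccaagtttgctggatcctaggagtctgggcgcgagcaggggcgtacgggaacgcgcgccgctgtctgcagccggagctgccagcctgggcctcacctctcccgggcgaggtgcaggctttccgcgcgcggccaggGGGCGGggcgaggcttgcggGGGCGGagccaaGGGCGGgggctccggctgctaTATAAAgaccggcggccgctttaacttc
Unc5b (chr10:60831582-60831831, minus strand): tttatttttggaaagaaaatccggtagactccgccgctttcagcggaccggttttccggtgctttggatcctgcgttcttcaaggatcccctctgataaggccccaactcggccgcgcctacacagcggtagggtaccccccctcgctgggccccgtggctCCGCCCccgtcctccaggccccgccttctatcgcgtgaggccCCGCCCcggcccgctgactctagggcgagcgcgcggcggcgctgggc

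The motifs were searched on both strands. The Runx motif was read as TGTGGT, the Sox motif as ACAANG, the AP-1 motif as TGANTCA, the hypoxia response motif as ACGTG and the Gli motif as TGGGTGGTC. The TATA box, read as TATAAA, and the GC box, read as GGGCGG, were added after the sequences were seen. Matches of different motifs do not overlap in these windows, and a pair of the GC boxes of Nrp2 share a base. The capitals in Sema3e are a Sox match, ACAAGG, 210 bases before the start, and 2 GC boxes. Slit2 holds a TATAAA 28 bases before its start and 3 GC boxes, Nrp2 holds 5 GC boxes, and Unc5b 2. No Runx, AP-1, hypoxia response or Gli letters occur in these windows, nor in those of Efna1 and Epha7, which differed most among the ephrins and Eph receptors. The Sema3e stretch was 48.0% G and C, against 72.4% for Nrp2, 69.6% for Slit2 and 66.8% for Unc5b, and the median of 32851 RefSeq promoters, several for some genes, was 52.4%. Sema3e did not stand for its group. The median was 72.0% for the 5 members highest in the round layer that had a promoter entry. It was 66.6% for the 10 highest in the hypertrophic layer and 64.8% for all 57 members with an entry. Over those promoters, windows of the same length held Runx in 14.0%, Sox in 36.3%, AP-1 in 6.75%, hypoxia response in 16.6%, Gli in 0.225%, TATAAA in 12.4% and GC boxes in 32.7%. Among the 57 members with an entry, 1 promoter each, 43 held a GC box, 14 a Sox, 9 a hypoxia response, 6 a Runx, 2 a TATAAA, 1 an AP-1 and 0 a Gli match. These matches describe the letters alone.

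Among the 18 tested semaphorins, 1 rose and 3 fell between flat and round, 5 rose and 1 fell between hypertrophic and flat, and 6 rose and 3 fell between hypertrophic and round. Sema3e, the class 3 semaphorin that repels vessels through Plxnd1, had the largest single difference among the 18. Its signals in litters 1 to 3 were 848, 1008 and 773 in the round layer, 149.9, 133 and 85.3 in the flat layer and 59.8, 73.1 and 54.6 in the hypertrophic layer. The flat layer was 6.15-fold lower than the round (log2 -2.62 ± 0.25, adjusted p = 2.65e-05) and the hypertrophic layer 10.2-fold lower (log2 -3.35 ± 0.25, adjusted p = 1.27e-06). The round arrays did not overlap with those of the other layers. Its mean lay above the expression filter (7.21) in the round layer alone, so it entered the test through the layer where it is high. Sema3c, an attractant in heart and vessel patterning, had signals of 4325, 4802 and 4802 in the round layer, 2014, 2410.3 and 3073 in the flat layer and 1290.4, 1742 and 1708 in the hypertrophic layer. It fell at each step, by 0.91 ± 0.13 from round to flat (adjusted p = 0.000474) and by 0.64 ± 0.13 from flat to hypertrophic (adjusted p = 0.00771), with no overlap between layers. The step from flat was lost with the hypertrophic 1 or hypertrophic 3 array left out on its own (adjusted p = 0.0538 to 0.0547). Perichondrium, fibroblast and tendon markers fell in 5 of 9 at each of these steps (summed signal 169409 to 192119 in the round layer, 132816 to 165751 in the flat layer and 104661 to 117034 in the hypertrophic layer), and their part in the Sema3c result was not tested. Sema3f, the usual partner of Nrp2, had mean signals of 991 ± 316 (SD, n = 3) in round, 507 ± 226 in flat and 534 ± 64.3 in hypertrophic samples, and was lower in the flat (log2 -0.99 ± 0.20) and hypertrophic layers (log2 -0.82 ± 0.20) than in the round, with adjusted p of 0.00508 and 0.0109. Its flat call was lost with round 1 and flat 3 left out together (adjusted p = 0.118), and its hypertrophic call with the hypertrophic 1 or hypertrophic 2 array left out on its own (adjusted p = 0.0703 to 0.0773).

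The other direction was led by Sema4d, a transmembrane semaphorin that osteoclasts are known to make and that acts on Plxnb1 of osteoblasts. Sema4d signals were 294, 292 and 412 in the round layer, 829.6, 1288 and 679 in the flat layer and 2400.2, 2789 and 2463 in the hypertrophic layer. The 3 layers did not overlap: it rose by 1.38 ± 0.21 from round to flat (adjusted p = 0.000632) and by a further 1.47 ± 0.21 to hypertrophic (adjusted p = 0.00084), 7.25-fold in all. Osteoclast markers moved with it: 7 of 8 listed were tested, 6 rose from round to flat and 7 from flat to hypertrophic, and their summed signal was 4573 to 5960 in the round layer, 12576 to 17427 in the flat layer and 71247 to 94202 in the hypertrophic layer. Calcr, the calcitonin receptor, lay below the filter, and the part of osteoclasts in the Sema4d result was not tested. In whole layers fewer cells of a type and less RNA per cell cannot be told apart. Sema7a, a lipid-anchored semaphorin that binds Plxnc1 and integrins, had signals of 843, 801 and 834 in the round layer, 879, 774 and 779 in the flat layer and 2012, 2509 and 1775 in the hypertrophic layer. Only the hypertrophic arrays were high among these 9, by 1.33 ± 0.15 over flat (adjusted p = 0.000199) and 1.30 ± 0.15 over round (adjusted p = 4.81e-05), while flat and round differed by -0.03 ± 0.15 (adjusted p = 0.925). Sema6d, a transmembrane ligand of plexin A receptors, had signals of 1348, 2138 and 2452 in the round layer, 1051, 1817 and 2472 in the flat layer and 3103, 3311 and 3902 in the hypertrophic layer. Its hypertrophic layer was higher than the flat by 1.02 ± 0.16 and the round by 0.83 ± 0.16 (adjusted p = 0.00175 and 0.00258), with no overlap. Without the litter block the adjusted p were 0.0693 and 0.072, and with the mean of its probe sets 0.253 and 0.215.

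Sema3d, a secreted relative of Sema3e, had signals of 294, 666 and 1092 in the round layer, 271, 294 and 394 in the flat layer and 953, 691 and 887 in the hypertrophic layer. The rise from flat to hypertrophic was 1.33 ± 0.29 (adjusted p = 0.0102), lost without the hypertrophic 1 array (adjusted p = 0.0754), and the round arrays overlapped with both other layers (flat minus round -0.88 ± 0.29, adjusted p = 0.0548). Sema4b, a transmembrane class 4 member, had signals of 131, 131 and 120.5 in the round layer, 283, 153 and 198 in the flat layer and 325, 230.1 and 310.2 in the hypertrophic layer. Hypertrophic exceeded round by 1.02 ± 0.26 (adjusted p = 0.0121) with no overlap, a call lost without the hypertrophic 3 array (adjusted p = 0.0758). Sema3b, a class 3 member known as a growth inhibitor, rose to the hypertrophic layer from flat by 0.65 ± 0.14 (adjusted p = 0.0104) and from round by 0.94 ± 0.14 (adjusted p = 0.000386). The flat call was lost with the hypertrophic 1, flat 3 or hypertrophic 3 array left out on its own (adjusted p = 0.0521 to 0.0883). Sema4g was higher in the hypertrophic than in the round layer (log2 0.86 ± 0.28, adjusted p = 0.0397), a call lost with the round 1, flat 1, hypertrophic 1, round 2, hypertrophic 2 or hypertrophic 3 array left out on its own (adjusted p = 0.0505 to 0.209). The remaining 8 tested semaphorins, Sema3a, Sema3g, Sema4a, Sema4c, Sema5a, Sema5b, Sema6a and Sema6c, passed in no contrast. Sema3a, which protects bone and repels sensory axons through Nrp1, was at -0.08 ± 0.15, -0.33 ± 0.15 and -0.41 ± 0.15 (flat minus round, hypertrophic minus flat, hypertrophic minus round), with adjusted p of 0.772, 0.203 and 0.0676.

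Of 9 tested plexins 1 rose between flat and round, 1 between hypertrophic and flat and 3 between hypertrophic and round, and 0 fell in any of them (0, 0 and 0 at unadjusted p under 0.05). Nrp2, the co-receptor of Sema3f and of lymphatic growth factors, had signals of 1272, 2459 and 1617 in the round layer, 3242, 3624 and 2456 in the flat layer and 7715, 6585 and 4838 in the hypertrophic layer. It rose at each step, by 0.83 ± 0.19 and 1.02 ± 0.19 (adjusted p = 0.00948 and 0.00433), and was 3.61-fold higher in the hypertrophic than in the round layer (adjusted p = 1.71e-05). Array round 2 reached the level of flat 3, the hypertrophic arrays did not overlap with the rest, and the first step was lost without the flat 1 array (adjusted p = 0.059) and without the litter block (adjusted p = 0.0607). Nrp1 had mean signals of 3916 ± 768, 4209 ± 315 and 4902 ± 270.0 and passed in no contrast (adjusted p = 0.617, 0.392 and 0.103). Its further probe sets, which this fit did not use, had differences of the same sign as Nrp2. They were at 0.44, 0.54 and 0.92 between hypertrophic and round, against 0.34 on the set used. Plxnd1, the receptor of Sema3e and an endothelial gene, had signals of 1995, 1639.5 and 1690.4 in the round layer, 2285, 1707 and 1917 in the flat layer and 4107, 3103 and 4003 in the hypertrophic layer. Round and flat arrays intermingled, and the hypertrophic arrays stood above both, by 0.91 ± 0.12 and 1.06 ± 0.12 (adjusted p = 0.000559 and 4.86e-05). Of 11 endothelial markers 3 fell from round to flat and 7 rose from flat to hypertrophic, with 0 below the filter and a summed signal of 14369 to 15620 in the round layer, 11339 to 12461 in the flat layer and 17419 to 19697 in the hypertrophic layer. Their part in the results for Plxnd1, Efnb2 and Unc5b was not tested. Plxna2, a receptor for class 6 semaphorins, had signals of 1006, 821 and 771 in the round layer, 2679.6, 2283 and 1503 in the flat layer and 2219.8, 1423 and 1626 in the hypertrophic layer. Its round arrays were the low ones: flat exceeded round by 1.26 ± 0.16 and hypertrophic by 0.98 ± 0.16 (adjusted p = 0.000178 and 0.000619), while hypertrophic and flat overlapped. Plxna1 was higher in the hypertrophic than in the round layer (log2 0.58 ± 0.16, adjusted p = 0.0169), a call lost with the round 2, hypertrophic 2, round 3 or hypertrophic 3 array left out on its own (adjusted p = 0.0647 to 0.112). Plxna3, Plxna4, Plxnb1, Plxnb2, Plxnb3 and Plxnc1 passed in no contrast. Plxnb1, the receptor of Sema4d, was at 0.05 ± 0.17, -0.15 ± 0.17 and -0.10 ± 0.17 in the 3 contrasts.

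**Figure D2:**
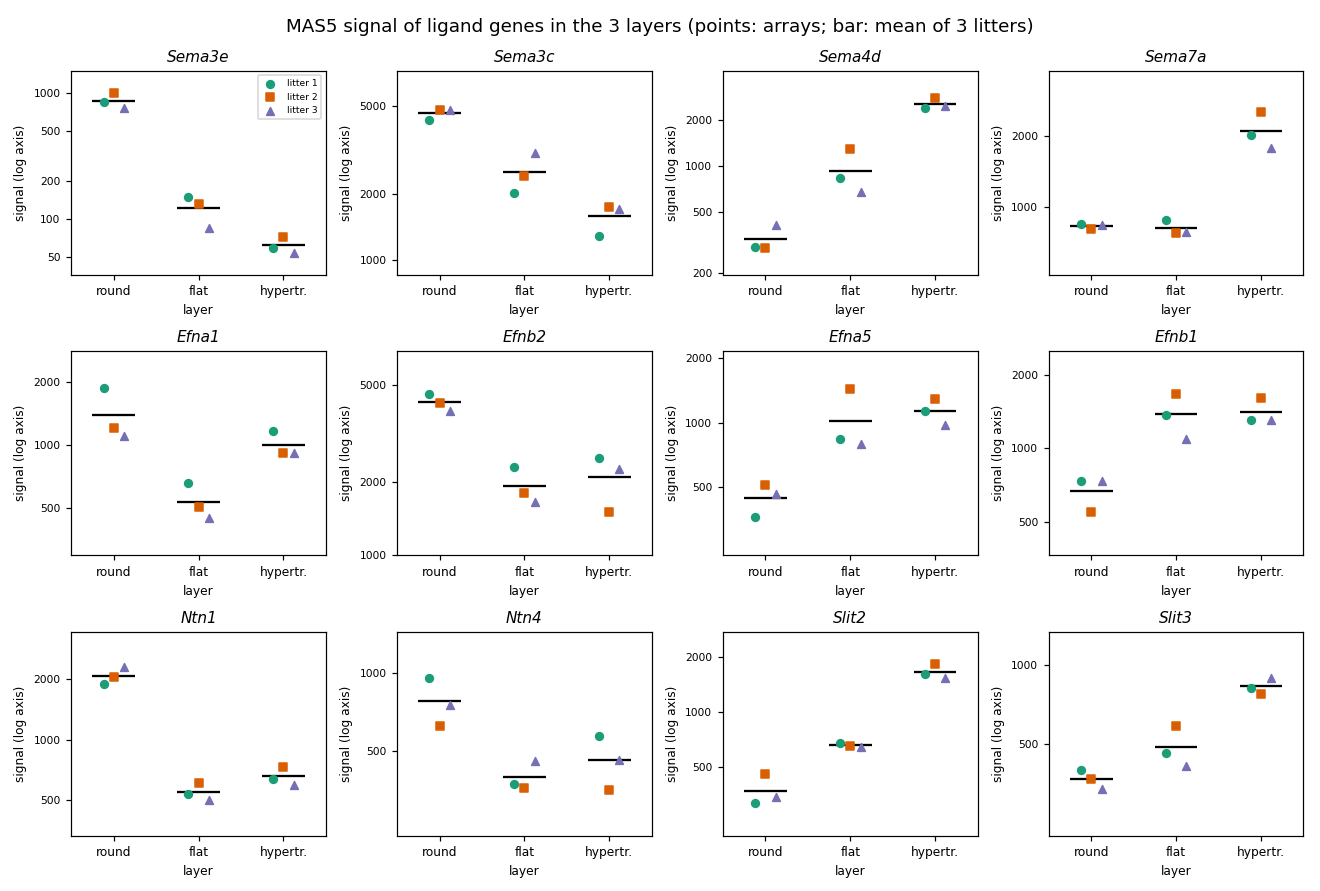
Points are the MAS5 signals of 12 ligand genes on single arrays (log axis; colour and shape give the litter) in the round, flat and hypertrophic layers, and bars are means of 3 litters. Sema3e and Ntn1 are high on the round arrays alone, Sema4d and Slit2 step up in each layer, and Efna1 is lowest in the flat layer.

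Of 7 tested ephrins, 2 rose and 2 fell between flat and round, 1 rose between hypertrophic and flat, and 2 rose and 2 fell between hypertrophic and round. The type A pair Efna1 and Efna5 and the type B pair Efnb1 and Efnb2 each ran in opposite directions from round to flat. Efna1, the main ligand of Epha2, had signals of 1872, 1213 and 1108 in the round layer, 656, 503 and 446 in the flat layer and 1161, 916 and 916 in the hypertrophic layer. The flat arrays were low, 2.5-fold under round (log2 -1.32 ± 0.14, adjusted p = 7.07e-05), and hypertrophic exceeded flat by 0.88 ± 0.14 (adjusted p = 0.00211). Hypertrophic and round overlapped, and their difference of -0.45 ± 0.14 (adjusted p = 0.0384) was lost with the round 1, flat 1, hypertrophic 1, round 2, hypertrophic 2, round 3 or hypertrophic 3 array left out on its own (adjusted p = 0.055 to 0.179) and without the litter block (adjusted p = 0.204). It was also lost with litter as a random block (0.0816), with median centring (0.0608), with no filter (0.0533) and with no variance trend (0.0539). Efna5 signals were 363, 511 and 468 in the round layer, 842, 1432 and 792 in the flat layer and 1136, 1293 and 980.4 in the hypertrophic layer. All flat and hypertrophic arrays lay above the round ones, by 1.11 ± 0.17 and 1.30 ± 0.17 (adjusted p = 0.000804 and 0.000148), and flat and hypertrophic overlapped. Efnb1, whose loss disturbs skull and limb patterning, had signals of 735, 546 and 732 in the round layer, 1376, 1673 and 1096 in the flat layer and 1309, 1613 and 1315 in the hypertrophic layer. It had the same shape, at 1.01 ± 0.18 for flat and 1.05 ± 0.18 for hypertrophic against round (adjusted p = 0.00228 and 0.00115). Efnb2, an arterial marker that osteoclasts also carry, had signals of 4610.2, 4224 and 3936 in the round layer, 2302, 1798 and 1656 in the flat layer and 2515, 1499 and 2269 in the hypertrophic layer. Here the round arrays were the high ones, with flat at -1.15 ± 0.15 and hypertrophic at -1.04 ± 0.15 (adjusted p = 0.000282 and 0.000322). Both Efnb2 calls were lost with the mean of its probe sets (adjusted p = 0.214 and 0.311), a further probe set above the filter had differences of the same sign (-1.06 and -0.51), and the dimmest one above it was at -0.16 and 0.15. Efna2, Efna4 and Efnb3 passed in no contrast.

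Eph receptors varied without a shared direction. Of 7 tested, Epha3 rose between flat and round, Epha2 between hypertrophic and flat, and 2 rose and 3 fell between hypertrophic and round. Epha3, a receptor for type A ephrins, had signals of 901, 1306 and 998 in the round layer, 2883, 3412 and 1820.5 in the flat layer and 2021, 2399.8 and 1764 in the hypertrophic layer. The round arrays were low, with flat 2.44-fold higher (log2 1.29 ± 0.15, adjusted p = 0.000141) and hypertrophic at 0.94 ± 0.15 (adjusted p = 0.000786). Epha7, also a type A receptor, had signals of 248, 330.3 and 208 in the round layer, 152, 296 and 187 in the flat layer and 102, 30.6 and 135 in the hypertrophic layer. Its hypertrophic arrays lay below all the others, -1.43 ± 0.41 against round (adjusted p = 0.0228), and the call was lost with the round 1, round 2 or hypertrophic 2 array left out on its own (adjusted p = 0.0576 to 0.133). Without hypertrophic 2, its lowest array, the difference was -0.78. Its hypertrophic mean was below the filter. Epha2 was higher in the hypertrophic layer than in the flat (log2 0.97 ± 0.20, adjusted p = 0.00781) and round (log2 0.64 ± 0.20, adjusted p = 0.0314). The first call was lost with the flat 1, hypertrophic 1 or hypertrophic 3 array left out on its own (adjusted p = 0.05 to 0.0601) and the second with the hypertrophic 1, round 2, hypertrophic 2, round 3 or hypertrophic 3 array left out on its own (adjusted p = 0.0635 to 0.146). Ephb3 and Ephb4, receptors of type B ephrins, were lower in the hypertrophic than in the round layer by small amounts, -0.61 ± 0.18 and -0.48 ± 0.15 (adjusted p = 0.0248 and 0.0345). Ephb3 was lost with the round 2, hypertrophic 2, round 3 or hypertrophic 3 array left out on its own (adjusted p = 0.0727 to 0.147) and Ephb4 with the round 1, hypertrophic 1, round 2, hypertrophic 2, round 3 or hypertrophic 3 array left out on its own (adjusted p = 0.0769 to 0.154), and without the litter block they were at 0.111 and 0.122. Epha4 and Ephb1 passed in no contrast.

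**Figure D3:**
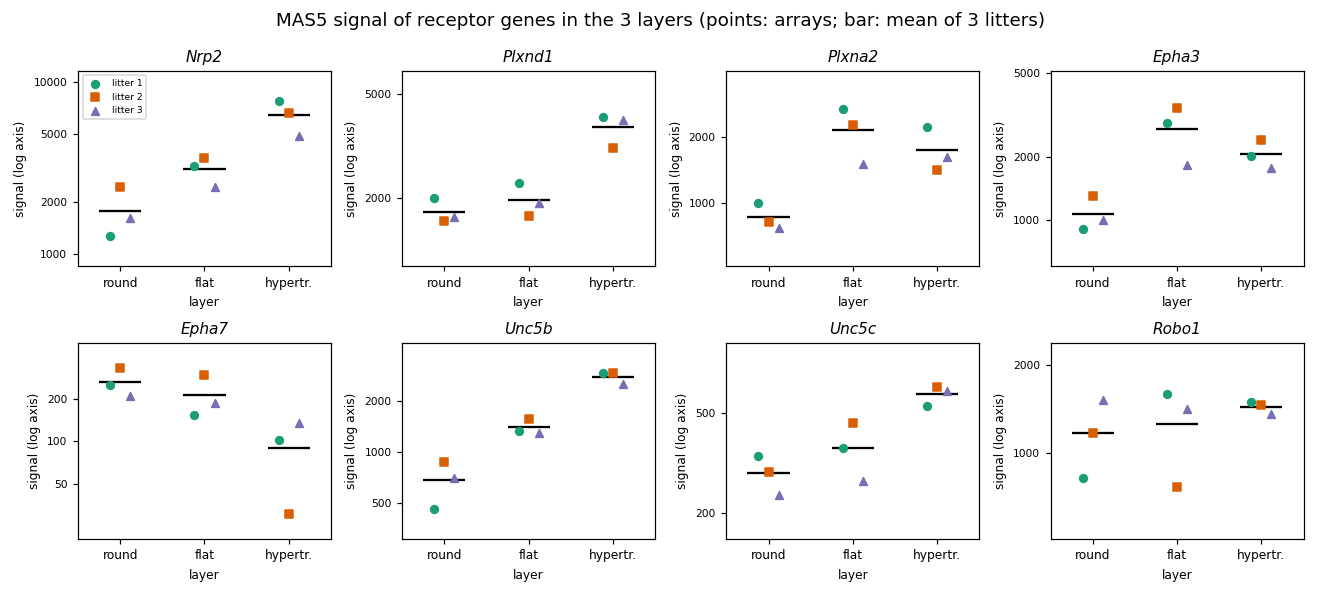
Points are the MAS5 signals of 8 receptor genes on single arrays (log axis; colour and shape give the litter) in the 3 layers, and bars are means of 3 litters. Nrp2 and Unc5b step up from round to hypertrophic, Plxnd1 and Unc5c are highest in the hypertrophic layer, Plxna2 and Epha3 are lowest in the round layer, and Robo1 overlaps across layers.

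Of the 3 Slits, Slit2 and Slit3 were tested, and both rose between hypertrophic and flat and between hypertrophic and round. Slit2 alone rose between flat and round as well. Slit2, a secreted repellent of axons and of migrating cells, had signals of 319, 459 and 343 in the round layer, 681, 655 and 649 in the flat layer and 1605, 1821 and 1526 in the hypertrophic layer. The 3 layers did not overlap, with steps of 0.80 ± 0.15 and 1.28 ± 0.15 (adjusted p = 0.00352 and 0.000276) and a 4.23-fold difference between hypertrophic and round (adjusted p = 1.26e-06). With the mean of its probe sets the first step had adjusted p = 0.143. Slit3 had signals of 401, 370.1 and 338 in the round layer, 463, 587 and 416 in the flat layer and 818, 779.6 and 892 in the hypertrophic layer. It was highest in the hypertrophic layer, by 0.75 ± 0.18 over flat (adjusted p = 0.0163) and 1.12 ± 0.18 over round (adjusted p = 0.000563). The call against flat was lost with the flat 1, hypertrophic 1, flat 3 or hypertrophic 3 array left out on its own (adjusted p = 0.0704 to 0.125), and flat minus round was 0.37 ± 0.18 (adjusted p = 0.182). Slit1 lay below the filter, with mean signals of 108 ± 78.3, 121 ± 125 and 106 ± 86.8. Of the 3 Robo receptors 0 passed by limma in any contrast (1 at unadjusted p under 0.05 in each). Robo1 was at 0.07 ± 0.24, 0.26 ± 0.24 and 0.33 ± 0.24, Robo2 at 0.66 ± 0.33, 0.08 ± 0.33 and 0.74 ± 0.33, and Robo3 at -0.78 ± 0.35, 0.81 ± 0.35 and 0.03 ± 0.35, with adjusted p of at least 0.125.

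Ntn1 and Ntn4, the 2 of 4 netrins tested, fell between hypertrophic and round, and Unc5b and Unc5c, the 2 of 4 Unc5 receptors tested, rose. Ntn3, Ntn5, Unc5a and Unc5d lay below the filter. Ntn1, the founding guidance netrin, had signals of 1895, 2058 and 2298 in the round layer, 535, 611 and 499.6 in the flat layer and 641, 733 and 598 in the hypertrophic layer. The round arrays were high and the others close together: flat was 3.67-fold lower (log2 -1.88 ± 0.15, adjusted p = 7.86e-06), hypertrophic at -1.63 ± 0.15 (adjusted p = 6.43e-06), and hypertrophic minus flat at 0.25 ± 0.15 (adjusted p = 0.337). Ntn4, a basement membrane netrin, followed with means of 778 ± 168, 397 ± 51.9 and 463 ± 109, at -0.91 ± 0.18 for flat and -0.72 ± 0.18 for hypertrophic against round (adjusted p = 0.00397 and 0.0111). The hypertrophic call was lost with the hypertrophic 2 or hypertrophic 3 array left out on its own (adjusted p = 0.057 to 0.0673), and both calls with the mean of its probe sets (adjusted p = 0.104 and 0.151). Unc5b, a netrin receptor known from endothelial tip cells, had signals of 462, 872 and 705 in the round layer, 1331, 1557 and 1299 in the flat layer and 2905, 2919.8 and 2512 in the hypertrophic layer. It rose by 1.05 ± 0.17 and again by 0.98 ± 0.17 (adjusted p = 0.00113 and 0.00301), with no overlap between layers and a 4.09-fold difference from round to hypertrophic (adjusted p = 3.48e-06). Unc5c was highest in the hypertrophic layer as well, at 0.70 ± 0.20 over flat and 0.99 ± 0.20 over round (adjusted p = 0.0438 and 0.00354), and the smaller of these was lost with the flat 1, hypertrophic 1, round 2, hypertrophic 2, flat 3 or hypertrophic 3 array left out on its own (adjusted p = 0.0518 to 0.253). Its flat minus round difference was 0.29 ± 0.20 (adjusted p = 0.379). A further Unc5c probe set above the filter was at 1.06 in that contrast and at 1.78 between hypertrophic and round.

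Ligands and receptors of the same system can be set side by side between hypertrophic and round, where the contrast shares its arrays. The pairs given are examples and not all possible pairs. Sema3e differed by -3.35 ± 0.25 between hypertrophic and round and Plxnd1 by 1.06 ± 0.12. For Sema3f and Nrp2 the values were -0.82 ± 0.20 and 1.85 ± 0.19, and for Ntn1 and Unc5b -1.63 ± 0.15 and 2.03 ± 0.17. Sema4d was at 2.86 ± 0.21, while its receptor Plxnb1 did not pass (-0.10 ± 0.17). Other pairs had the same sign: Efna5 and Epha3 were at 1.30 ± 0.17 and 0.94 ± 0.15, and Efnb2 and Ephb4 at -1.04 ± 0.15 and -0.48 ± 0.15. Sema6d was at 0.83 ± 0.16, with the plexin A receptors Plxna1 at 0.58 ± 0.16 and Plxna2 at 0.98 ± 0.16, while Plxna3 and Plxna4 did not pass. Efna1 and Epha2 had opposite signs, at -0.45 ± 0.14 and 0.64 ± 0.20. So did Efnb1, at 1.05 ± 0.18, and Ephb3 and Ephb4, at -0.61 ± 0.18 and -0.48 ± 0.15. The calls of Sema3f, Efna1, Epha2, Plxna1, Ephb3 and Ephb4 were each lost with some single arrays left out. That of Efnb2 was lost with the mean of its probe sets, and that of Sema6d with such a mean and without the litter block. Slit2 and Slit3 rose in a contrast that no Robo passed. These are values of transcripts in the same layers and say nothing of contact between cells.

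**Figure D4:**
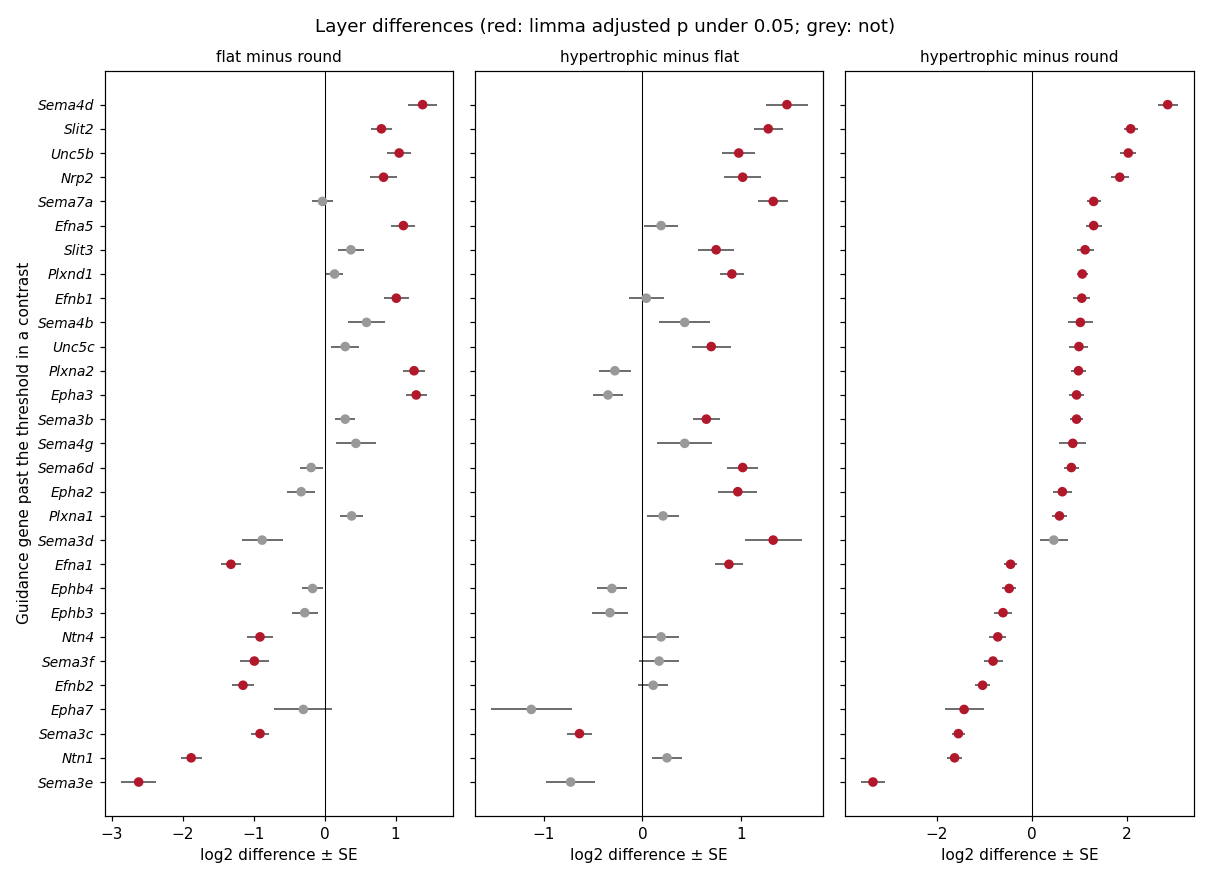
Log2 differences (points) with standard errors (bars) of the 29 guidance genes past the threshold in at least 1 contrast, in the 3 contrasts; red points have a limma adjusted p under 0.05 and grey points do not. In the middle panel 13 red points lie right of 0 and 1, Sema3c, lies left of it.

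The 23 tested members that passed in no contrast had differences between -1.11 and 0.98. Low values on 1 array marked some of them: Efna4 was at 16.6 and Robo3 at 21.1 on the flat array of litter 3, against 246 and 261, and 209 and 173, on the other flat arrays. The 15 members below the filter were Sema4f, Sema6b, Efna3, Epha1, Epha5, Epha6, Epha8, Epha10, Ephb6, Slit1, Ntn3, Ntn5, Unc5a, Unc5d and Plxna4os1, with array signals of 2.6 to 294.9 and mean log2 values of 5.44 to 7.02. Of the 52 tested, 45 had a mean above the filter in all 3 layers and 7 did not: Sema3e, Sema5b, Epha4, Epha7, Ephb1, Robo2 and Robo3. Counts over the 52 are therefore not counts over all members. Of 10 nerve and Schwann cell markers measured, 4 were tested, and 0 passed by limma between neighbouring layers (1 at unadjusted p under 0.05 between flat and round and 2 between hypertrophic and flat). S100b, which chondrocytes also express, was lower in the hypertrophic than in the round layer (-0.85 ± 0.22, adjusted p = 0.0134). Their summed signal was 1161 to 1665 in the round layer, 1921 to 2261 in the flat layer and 1182 to 1713 in the hypertrophic layer. Gfap, Tubb3, Nefl, Nefm, Prph and Cdh19 lay below the filter.

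Partners that carry guidance signals onward were counted from a list of 107 genes, of which 88 were tested. Between flat and round 13 of the 88 rose and 13 fell (all genes: 8.39% and 8.64%). Between hypertrophic and flat 14 rose and 3 fell (all genes: 6.12% and 5.22%). Between hypertrophic and round 21 rose and 15 fell (all genes: 12.4% and 12.7%). Co-receptors and effectors of semaphorins rose in 7 of 29 between hypertrophic and flat, among them the receptor kinase Mst1r (1.60 ± 0.27), the small GTPase Rnd1 (1.70 ± 0.37), the exchange factor Farp2 (1.09 ± 0.17) and the immune adaptor Tyrobp (1.47 ± 0.15). Macrophage markers, whose part in the Tyrobp value was not tested, rose in 3 of 9 in that contrast, with summed signals of 11018 to 12052 in the round layer, 12707 to 15375 in the flat layer and 20241 to 25294 in the hypertrophic layer. Rnd3 rose between flat and round (1.04 ± 0.14), where the oxidoreductase Mical1 (-1.41 ± 0.20) and Dpysl3 (-1.03 ± 0.16), a collapsin response mediator, fell. Among Eph effectors, Ngef, the exchange factor ephexin, fell between flat and round (-3.08 ± 0.40), and the chimaerins Chn1 (1.31 ± 0.32) and Chn2 (1.20 ± 0.20), which inactivate Rac, rose. Chn1 rose further to the hypertrophic layer (1.21 ± 0.32). Gpc1, a heparan sulfate proteoglycan that binds Slits, rose by 1.70 ± 0.13 and then 0.57 ± 0.13. Between hypertrophic and round, the Robo effector Srgap1 (1.04 ± 0.21) and the exchange factor Kalrn (1.15 ± 0.20) were higher, and the netrin relative Ntng1 was lower (-1.04 ± 0.27). Flrt3, a ligand of Unc5 receptors, the RGM family member Hjv and the actin regulator Enah rose between flat and round (1.21 ± 0.24, 1.48 ± 0.20 and 1.03 ± 0.11), with muscle markers rising in the same contrast in 9 of 9. Hjv is also a muscle gene, and the part of muscle in these values was not tested. The netrin receptor Dcc lay below the filter, and neogenin, Neo1, was at 0.13 ± 0.14, -0.33 ± 0.14 and -0.21 ± 0.14.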

How the data were processed

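Messenger RNA of 9 samples (3 layers, 3 litters) was measured on Affymetrix mouse arrays. The deposited intensity values are MAS5 signals on a linear scale for 45101 probe sets, made with Affymetrix Expression Console and MAS5 (per the submitters' processing notes; no version is stated there), and each array has the same trimmed mean (500.0).

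Probe sets of 1 gene (34945, after 64 controls were left out) were named through the platform's annotation and current RefSeq symbols, and 34741 matched by gene identifier. Signals were taken as log2(signal + 26), 26 being the 20th percentile of all values, so folds of dim genes are understated. The brightest probe set on average stood for a gene, and genes above the median of the probe sets (7.21) were tested, 11313 in all. limma 3.58.1 in R 4.3.3 fitted layer with litter as a fixed block and a variance trend (residual degrees of freedom 4). Adjusted p are Benjamini-Hochberg values over all genes tested, with a threshold of 0.05. The median standard error of a difference was 0.179, which the number of arrays limits. The model was tested on simulated data.

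The labels number the replicates, and arrays of the same number were taken to be of the same litter. Deviations from layer means correlated at 0.167 to 0.517 in 9 same-number pairs and -0.434 to 0.0815 in 18 others. These correlations cannot tell a litter from another source shared by arrays of the same number. The labels give no other replicate source. Members passing the threshold are all named, those with a log2 difference of at least 1 in a contrast passed (and the leading 10 of the F test) with every array's signal. Partners were named at the same size. The members, lists and alternatives were chosen with earlier results of these data known.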

Additional observations from a re-analysis of the deposited data

How the results depend on the processing

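Of 57 gene differences past the threshold, 31 stayed past it in all 23 alternatives, and 0 changed sign. The 10 alternatives of scale, filter, probe set, block and variance kept 33, the 9 that left out an array 40, the 3 that left out a litter 41. Leaving out each array or litter in turn gave 21 to 27 members that differed in any layer, 7 to 8 that rose and 7 to 8 that fell between flat and round, 8 to 13 and 0 to 1 between hypertrophic and flat, and 14 to 18 and 4 to 11 between hypertrophic and round. Where that gave 0 falls between hypertrophic and flat, 5 or 6 members were lower at unadjusted p under 0.05. With the mean of all probe sets of a gene, 4 fell between flat and round and 5 between hypertrophic and round, in place of 7 and 10; the cause was not tested, and Sema3e, Sema4b and Epha7 were not tested there or with a filter at the 65th percentile, nor Sema4g with that filter. Without the replicate block for litter, 0 fell between hypertrophic and flat (3 at unadjusted p under 0.05), 6 fell between hypertrophic and round, and 13 of the 57 differences were lost. Without the variance trend 2 fell between hypertrophic and flat, and without round 1 and flat 3 together 3 did.

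Besides those given with the genes, losses without the block were Sema3f (adjusted p = 0.088 and 0.118 for flat and hypertrophic against round), Sema3c, Sema3d and Unc5c between hypertrophic and flat (0.0661, 0.0565 and 0.11), and Epha2 and Sema4g between hypertrophic and round (0.0552 and 0.0511). The mean of probe sets also ended Sema3b, Sema3d and Unc5c between hypertrophic and flat (0.0704, 0.0582 and 0.06) and Plxna1 and Efna1 between hypertrophic and round (0.334 and 0.348). Leaving out round 1 and flat 3 together also ended Unc5c between hypertrophic and flat (0.125) and Efna1, Epha7, Ephb4 and Sema4b between hypertrophic and round (0.12, 0.0574, 0.101 and 0.0516).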

Other observations

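Further probe sets of the same genes gave readings that the fit did not use. The 67 members have 148 probe sets, and 34 of those not used, for 22 members, lay above the filter. They met 54 differences past the threshold and had the same sign in 52. The exceptions were Efna1 (0.01 against -0.45) and Efnb2 (0.15 against -1.04), both between hypertrophic and round. The sets of a gene were hybridised to the same RNA, so they are no replicates.

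For several genes the further sets put the size of the difference close to the value reported. Nrp2 had 3 of them, at 1.68, 1.41 and 2.20 between hypertrophic and round, where 1.85 was reported. Plxna2 had 3 as well, at 1.20, 1.08 and 1.14 between flat and round, where 1.26 was reported. A further set of Unc5b was at 2.19 between hypertrophic and round, where 2.03 was reported. Sema3e had 3 further sets, of which the one above the filter was at -4.34 and the others at -3.32 and -2.44, with -3.35 reported, so the size varied between sets. Sema3b was less even, with 1.18 and 0.15 on its further sets and 0.94 reported. Sema6d differed in its first step, with 0.37 between flat and round where -0.19 was reported. The further sets of Sema4d lay below the filter and did not match each other. They were at 2.49 and 0.36 between hypertrophic and round, where 2.86 was reported. Between hypertrophic and flat they were at 2.08 and -0.99, where 1.47 was reported.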
